A study of Mus musculus with 26 samples.

Results

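CBP and p300 are closely related histone acetyltransferases, and their chromatin sites were compared here in rosiglitazone-treated 3T3-L1 adipocytes. Sites were found by joining windows of the CBP and p300 peak lists that overlapped by 1 bp or more, and were sorted into CBP-only, p300-only and shared sites. The 9515 CBP peaks and 13746 p300 peaks formed 16473 sites, against 67815 sites over all 15 ChIP-seq lists of the series. CBP alone held 2744 sites, p300 alone 6959 and both 6770. 3T3-L1 is a mouse fibroblast line that is differentiated in culture to fat cells, here with dexamethasone, insulin and 3-isobutyl-1-methylxanthine. Mature adipocytes received 1 µM rosiglitazone in DMSO or were left untreated. The lists used were CBP, p300 and NCOR with and without rosiglitazone (1 list each), MED1 with and without it (n = 2 lists each), and CEBPa, CEBPb, ATF2, JUND and FOSL2 from untreated cells (1 list each). CBP and p300 were precipitated with different Santa Cruz antibodies (sc-369x and sc-585x), so factor and antibody cannot be told apart.

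CBP and p300 have no DNA-binding domain that selects their sites. They are brought to enhancers and promoters by transcription factors and acetylate histones there. MED1 is the Mediator subunit that contacts nuclear receptors carrying an agonist, such as PPARγ with rosiglitazone. NCOR is a corepressor that carries a histone deacetylase and binds receptors most strongly when no agonist is present. CEBPa and CEBPb drive the differentiation of fat cells. The leucine zipper proteins JUND and FOSL2 form AP-1, and ATF2, of the same wider family, can pair with JUN proteins.

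Each peak was a 200 bp window with a score set by the authors, used here only as a rank within its list. Read depth is unknown, and a site missing from a list may be bound below its threshold. Lists began at scores of 1.00 to 1.09, except the second MED1 rosiglitazone list, which began at 1.43. Scores of that list also had the coarsest steps, of 0.24, against 0.085 in the first MED1 rosiglitazone list. How long the ChIP-seq cells were treated is not stated in the labels. Peak names carry 1h in MED1 rosiglitazone replicate 2 and 30m in NCOR with rosiglitazone, while CBP and p300 names carry no time, so the lists may differ in time as well. With 1 CBP and 1 p300 list the comparison is between 2 libraries, and no test was made. Shares carry 95% Wilson intervals, and differences of shares 95% Newcombe intervals. Both cover counting error only, and neighbouring sites are not independent.

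Most CBP sites also held p300, while about as many p300 sites lacked CBP as held it. Of sites with CBP, 71.2% were shared (70.2 to 72.1), and of sites with p300, 49.3% (48.5 to 50.1). The p300 list was longer, and with p300 cut to its 9515 highest peaks the shares were 62.2% of CBP and 62.3% of p300 sites. At shared sites the peak centres lay a median of 23 bp apart, and at 80.4% of them at most 50 bp apart. Single-factor sites were seldom near misses. A p300 centre lay within 500 bp of 168 CBP-only sites (6.12%), and a CBP centre within 500 bp of 289 p300-only sites (4.15%). The median distance to the nearest peak of the other factor was 16741 bp from CBP-only and 26394 bp from p300-only sites.

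Sharing increased with score in both lists. In the lowest decile of the CBP list 46.9% of sites were shared (43.7 to 50.0), and in the highest 89.2% (87.1 to 91.0). In the p300 list the share went from 14.9% (13.0 to 16.9) to 91.5% (89.9 to 92.9), so the lists differed most among weak sites and met at the top. The lists differ in length, so equal deciles are not equal ranks. Of the 100 highest CBP peaks 91 overlapped a p300 peak, and of the 100 highest p300 peaks 97 overlapped a CBP peak. CBP-only sites had a median CBP percentile of 32.7, against 57.0 for shared sites. For p300 the medians were 30.4 for p300-only and 70.2 for shared sites, a difference of 39.9 percentile points. With p300 cut to 9515 peaks and ranked again, the p300 medians were 29.3 and 62.5 and the CBP medians 29.7 and 62.2, differences of similar size.

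**Figure D1:**
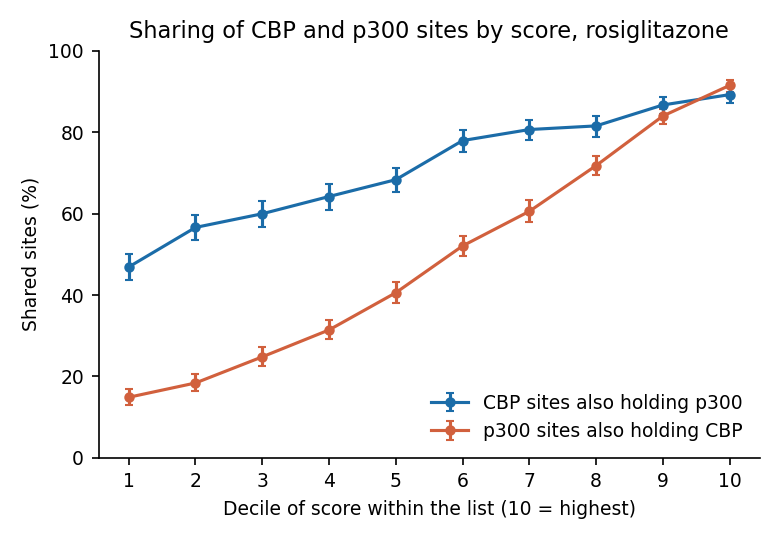
Percent of CBP sites that also held p300 (blue) and of p300 sites that also held CBP (orange), by decile of score within each rosiglitazone list; bars are 95% Wilson intervals. The curves start at 46.9% and 14.9% and end at 89.2% and 91.5%.

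Where both factors were listed, their ranks were related but often far apart. Over the 6770 shared sites the Spearman correlation of the score percentiles was 0.65 and Pearson's r was 0.61. This is a description across sites, which share chromatin accessibility and the 2 libraries, and weak sites are missing because each list is cut at a threshold. Only 1465 sites (21.6%) fell in the same decile of both lists, and 594 were in the top decile of both. At 1651 sites the p300 percentile was higher by over 25 points and at 465 the CBP percentile was. The p300 percentile was higher by over 50 points at 344 sites, against 91 for CBP. Shared sites are a smaller part of the longer p300 list and sharing rose with score, so the uncut percentiles are not like for like. With p300 cut to 9515 peaks and ranked again, the counts over 25 points were 844 for p300 and 807 for CBP, nearly level, and those over 50 points were 118 and 212, in the opposite order.

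**Figure D2:**
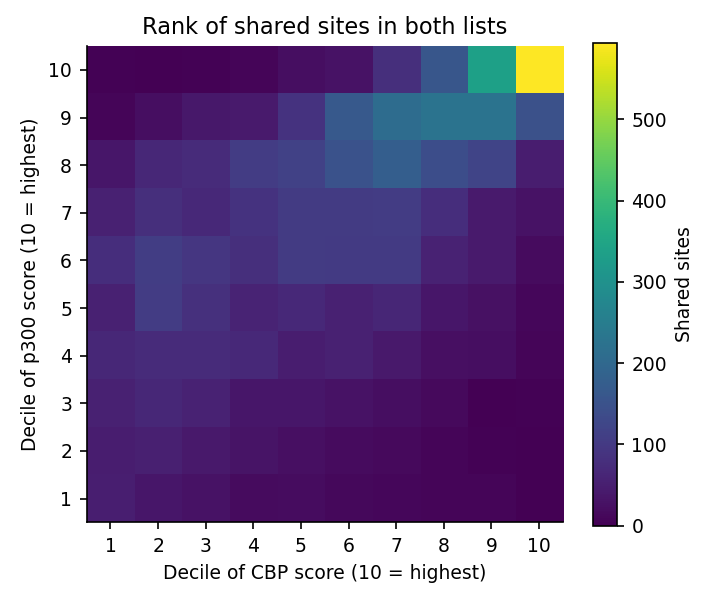
Number of shared sites (colour) in each combination of CBP score decile (x axis) and p300 score decile (y axis), rosiglitazone lists. The fullest cell is the top decile of both, with 594 sites, and 3804 sites lie above the diagonal against 1501 below it, an imbalance that depends on list length (2471 against 2093 at equal length).

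MED1 with rosiglitazone was most often at shared sites. Over whole classes, p300-only sites held it more often than CBP-only sites in MED1 replicate 1, while in replicate 2 the classes were nearly level. In MED1 replicate 1 it was at 58.0% of shared (56.8 to 59.1), 25.2% of p300-only (24.2 to 26.2) and 12.6% of CBP-only sites (11.5 to 13.9), against 36.6% of all 16473 sites. In replicate 2 it was at 37.4% of shared (36.2 to 38.5), 13.6% of p300-only (12.8 to 14.4) and 12.4% of CBP-only sites (11.2 to 13.6), against 23.1% of all. Over the lists the shares were 47.7% ± 14.6 (SD, n = 2) for shared, 19.4% ± 8.2 (SD, n = 2) for p300-only and 12.5% ± 0.21 (SD, n = 2) for CBP-only sites. Shared sites lay above both other classes in each list. The difference of p300-only minus CBP-only was 12.5 percentage points (10.9 to 14.1) in replicate 1 and 1.21 (-0.29 to 2.65) in replicate 2, a mean of 6.88 ± 8.01 (SD, n = 2) that is smaller than its spread. By chromosome, replicate 1 was higher at p300-only sites on all 20 chromosomes and replicate 2 on 12 of 20. MED1 was in both rosiglitazone lists at 29.4% of shared, 7.57% of p300-only and 3.68% of CBP-only sites.

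**Figure D3:**
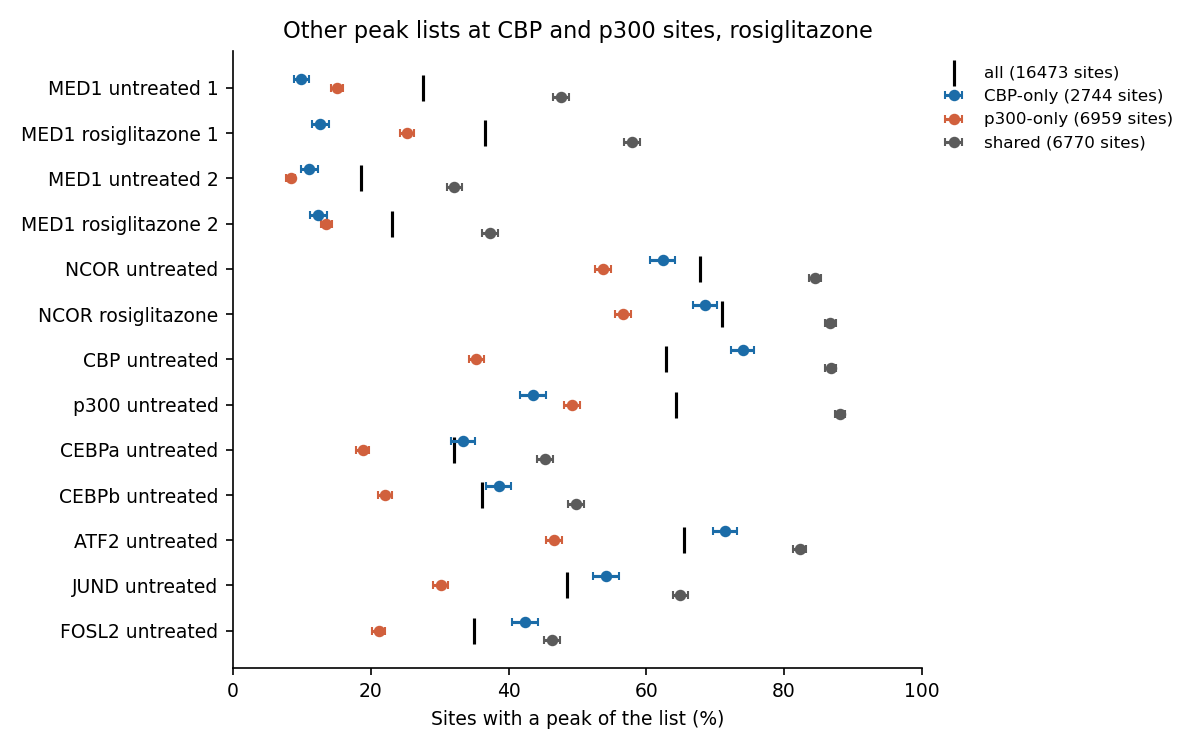
Percent of CBP-only (blue), p300-only (orange) and shared (grey) sites with a peak of each other list (rows; MED1 rows end in the replicate number), with 95% Wilson intervals; the black mark is the share over all 16473 sites. Shared sites have the highest share in every row, and CBP-only sites lie above p300-only sites for NCOR, untreated CBP, untreated MED1 replicate 2 and all 5 transcription factors.

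The MED1 difference between the single-factor classes widened with score in both replicates. In the lowest score decile MED1 replicate 1 was at 11.7% of CBP-only and 10.2% of p300-only sites. In the highest decile it was at 13.5% of 104 CBP-only sites (8.19 to 21.3) but at 68.7% of 115 p300-only sites (59.7 to 76.5). MED1 replicate 2 went from 7.05% to 26.9% at CBP-only sites (19.3 to 36.2 in the top decile) and from 6.31% to 64.3% at p300-only sites (55.3 to 72.5). In the top decile the intervals of the classes thus did not overlap in either MED1 list. Averaged over deciles, so that classes were matched on score percentile, p300-only sites were higher by 20.2 points in replicate 1 and 6.51 in replicate 2. With p300 cut to the length of the CBP list the differences were 19.8 points (17.8 to 21.7) and 6.91 (5.21 to 8.61). Among sites within the 2000 highest peaks of their own list, a choice made after the values were seen, MED1 was at 16.9% and 24.1% of 249 CBP-only and at 63.1% and 54.7% of 203 p300-only sites in replicates 1 and 2.

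**Figure D4:**
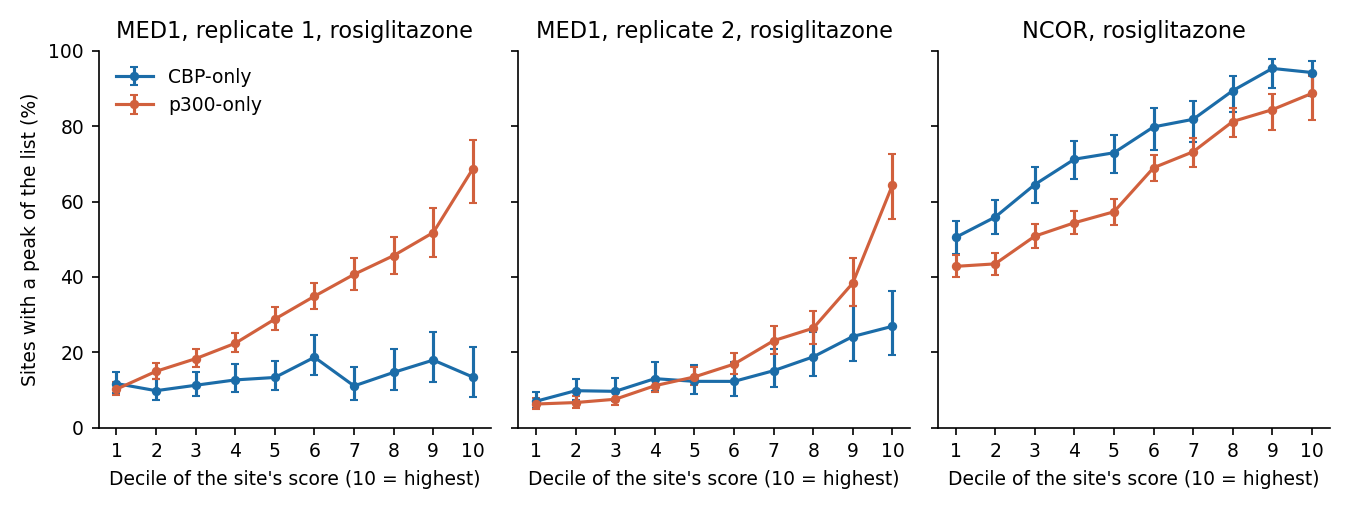
Percent of CBP-only (blue) and p300-only (orange) sites with a peak in each MED1 rosiglitazone list and the NCOR rosiglitazone list, by decile of the site's score in its own list; bars are 95% Wilson intervals. MED1 climbs to 68.7% and 64.3% at p300-only sites and to 13.5% and 26.9% at CBP-only sites, while NCOR climbs in both classes, to 88.7% and 94.2%.

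NCOR was at a larger share of CBP-only than of p300-only sites. With rosiglitazone it was at 86.7% of shared (85.9 to 87.5), 68.5% of CBP-only (66.8 to 70.3) and 56.7% of p300-only sites (55.5 to 57.8), against 71.0% of all sites. The share at p300-only minus CBP-only sites was -11.9 points (-14.0 to -9.78) and was below 0 on 20 of 20 chromosomes. With p300 cut to 9515 peaks it was -3.37 points (-5.52 to -1.21). That cut drops the weakest p300 peaks and so also changes the classes, with CBP-only sites going from 2744 to 3592. Length, site strength and class membership cannot be told apart here. Matched on score percentile it was -11.0. In the top score decile NCOR was at 94.2% of CBP-only and 88.7% of p300-only sites. NCOR peaks also ranked higher within their list at shared sites, at a median percentile of 82.2, against 63.8 at CBP-only and 58.0 at p300-only sites.

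MED1 and NCOR, a coactivator subunit and a corepressor, were listed together at most MED1 sites of every class. NCOR with rosiglitazone was itself at 86.7% of shared, 68.5% of CBP-only, 56.7% of p300-only and 71.0% of all sites. Most MED1 sites would thus hold it even if the lists were unrelated. Of shared sites 59.9% held NCOR and MED1 in at least 1 list, against 21.7% of p300-only and 17.5% of CBP-only sites. NCOR without MED1 was at 51.1% of CBP-only sites (49.2 to 52.9), and at 34.9% of p300-only and 26.8% of shared sites. MED1 without NCOR was at 9.44% of p300-only (8.78 to 10.2), 5.95% of shared and 3.83% of CBP-only sites (3.17 to 4.61). Neither was at 33.9% of p300-only, 27.6% of CBP-only and 7.33% of shared sites. The presence of NCOR went with more MED1 in all classes. In replicate 1, p300-only sites held MED1 at 30.5% with NCOR and 18.3% without, and CBP-only sites at 14.5% and 8.57%. In replicate 2 the p300-only shares were 18.9% and 6.56%, and the CBP-only shares 15.7% and 4.98%. From the lowest to the highest score decile of p300-only sites, NCOR rose from 42.8% to 88.7% and MED1 replicate 1 from 10.2% to 68.7%. The shares with and without NCOR were not matched on score, and the cause was not tested.

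All 5 transcription factors, mapped in untreated cells, were at a larger share of CBP-only than of p300-only sites. ATF2 was at 71.5% of CBP-only (69.7 to 73.1), 46.6% of p300-only (45.5 to 47.8) and 82.2% of shared sites, against 65.4% of all sites, and the p300-only minus CBP-only difference was -24.8 points (-26.9 to -22.7). The AP-1 subunit JUND was at 54.2%, 30.1% and 64.9% of these classes in the same order, a difference of -24.0 points, against 48.4% of all sites. Its partner FOSL2 was at 42.3%, 21.1% and 46.3%, a difference of -21.2 points, against 35.0% of all. For FOSL2 the CBP-only sites came within 3.99 points (1.79 to 6.18) of the shared sites. CEBPa was at 33.3%, 18.8% and 45.3%, a difference of -14.5 points, against 32.1% of all, and CEBPb at 38.6%, 22.0% and 49.7%, a difference of -16.5 points, against 36.2% of all. At equal list length the differences were -21.1 points for ATF2, -22.5 for JUND, -20.3 for FOSL2, -8.55 for CEBPa and -10.4 for CEBPb. In the upper 50% of both lists CEBPa was at -22.7 points.

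Counted per site, the factor lists separated the classes further. CBP-only sites held a mean of 2.40 of the 5 factors, p300-only sites 1.39 and shared sites 2.89. None of the 5 was at 34.6% of p300-only (33.5 to 35.7), 12.5% of CBP-only (11.3 to 13.8) and 7.84% of shared sites. All 5 were at 2.08% of p300-only, 7.98% of CBP-only and 17.7% of shared sites. A C/EBP factor together with ATF2 or AP-1 was at 33.6% of CBP-only and 15.4% of p300-only sites. Sites in none of the other 13 lists came to 604 among p300-only (8.68%), 61 among CBP-only (2.22%) and 20 among shared sites (0.30%). Since the factors were mapped without rosiglitazone, a factor that moved on treatment would not be seen here.

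The ATF2 difference was also present among strong sites. ATF2 was at 57.5% of CBP-only and 38.7% of p300-only sites in the lowest score decile, and at 86.5% (78.7 to 91.8) and 53.9% (44.8 to 62.7) in the highest. Among the sites within the 2000 highest peaks of their list, JUND was at 65.5% of CBP-only and 32.0% of p300-only sites and CEBPa at 70.3% and 52.7%. There the factors were listed more often at CBP-only sites and MED1 more often at p300-only sites.

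The contrast was present in part among shared sites, where both coactivators were listed and their ranks differed. Shared sites were ordered by p300 percentile minus CBP percentile. In the 25% of sites leaning most to CBP (1692 sites) the median difference was -15.7 points, and in the 25% leaning most to p300 (1693 sites) 36.9 points. ATF2 was at 90.4% of the CBP-leaning sites (88.9 to 91.7) and 71.2% of the p300-leaning sites (69.0 to 73.3). CEBPa was at 52.2% and 28.5%, CEBPb at 57.6% and 32.6%, JUND at 72.6% and 54.1%, and FOSL2 at 57.2% and 33.8%. NCOR with rosiglitazone was at 89.2% (87.7 to 90.6) and 80.0% (78.0 to 81.8). MED1 with rosiglitazone was at 37.4% (35.1 to 39.7) of CBP-leaning and 63.0% (60.7 to 65.3) of p300-leaning sites in replicate 1. In replicate 2 it was at 27.9% (25.8 to 30.1) and 30.1% (27.9 to 32.3), intervals that overlap. The median of the mean percentile was 58.8 at CBP-leaning and 49.2 at p300-leaning sites. With p300 cut to 9515 peaks and ranked again, those medians were 50.7 and 51.5, and MED1 was at 43.3% of CBP-leaning and 70.4% of p300-leaning sites in replicate 1, and at 29.3% (27.1 to 31.7) and 35.9% (33.5 to 38.3) in replicate 2. ATF2 was then at 89.5% and 74.3%.

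The classes also differed in their state before treatment. Untreated CBP was at 74.0% of CBP-only, 35.3% of p300-only and 86.8% of shared sites, against 62.9% of all sites. Untreated p300 was at 43.5%, 49.2% and 88.2%, against 64.3% of all. Thus 79.5% of shared sites (78.5 to 80.5) already held both factors, and 4.59% held neither. Of CBP-only sites 37.5% had held CBP alone, 36.4% both, 7.11% p300 alone and 18.9% neither. Of p300-only sites 41.2% (40.1 to 42.4) had held neither factor, 25.7% both, 23.5% p300 alone and 9.60% CBP alone. The untreated CBP list was the longer, with 15383 peaks against 9515, and the p300 lists held 15007 and 13746. With all 4 lists cut to 9515 peaks, neither factor had been listed at 50.2% of p300-only and 38.6% of CBP-only sites, and both at 19.1% and 22.7%.

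**Figure D5:**
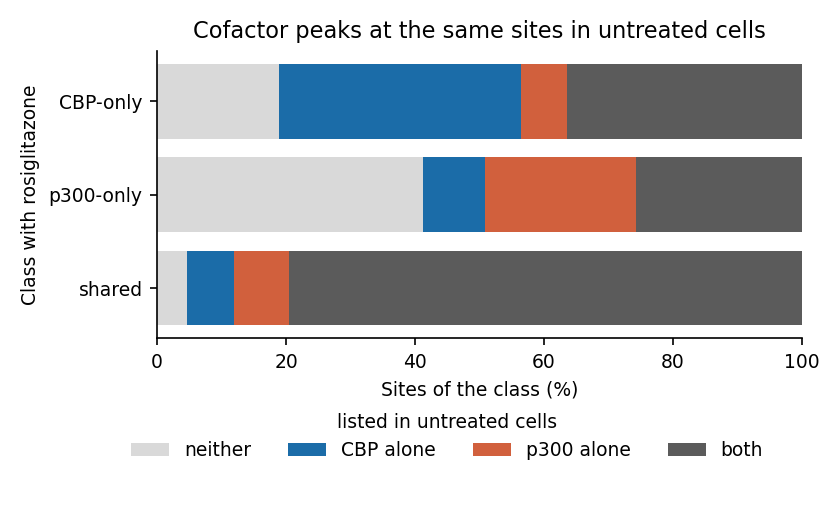
Share of CBP-only, p300-only and shared rosiglitazone sites (bars) whose position held neither factor, CBP alone, p300 alone or both in untreated cells. Both factors were already at 79.5% of shared sites, while neither was at 41.2% of p300-only sites.

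Most sites that held both factors in untreated cells held at least 1 afterwards. Of 9689 untreated shared sites, 5388 (55.6%) held both factors after rosiglitazone, 1779 (18.4%, 17.6 to 19.1) p300 alone, 989 (10.2%, 9.62 to 10.8) CBP alone and 1533 (15.8%) neither. Most untreated single-factor sites held neither factor afterwards, 61.4% of CBP-only and 54.6% of p300-only ones. Few sites exchanged 1 factor for the other. Of 5318 untreated p300-only sites 195 (3.67%) became CBP-only, and of 5692 untreated CBP-only sites 670 (11.8%) became p300-only. These directions did not hold at equal list length, where rosiglitazone sites were counted. With the lists uncut, rosiglitazone sites that had held both factors were p300-only 1790 times and CBP-only 1000 times. With all 4 lists cut to 9515 peaks they were CBP-only 814 times and p300-only 684 times, so the order turned. Exchanges then numbered 270 from p300 alone to CBP-only and 249 from CBP alone to p300-only, against 195 and 668 uncut.

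Within each MED1 replicate number, MED1 peaks at p300-only sites were more numerous with than without rosiglitazone. In replicate 1 their number was 1753 against 1049, a ratio of 1.67, and in replicate 2 it was 944 against 582, a ratio of 1.62. The whole MED1 lists grew by ratios of 1.43 and 1.53. At CBP-only sites the ratios were 1.28 (347 against 272) and 1.12 (339 against 303), and at shared sites 1.22 and 1.16. The ratio at p300-only sites divided by that at CBP-only sites was 1.31 in replicate 1 and 1.45 in replicate 2. With the rosiglitazone list cut to the length of the untreated one the ratios were 1.14 and 1.32 at p300-only, 1.04 and 1.02 at shared, and 0.85 and 0.86 at CBP-only sites, so p300-only sites were above 1 and CBP-only sites below 1 in both replicates. The classes were defined by the rosiglitazone lists, and 41.2% of p300-only against 18.9% of CBP-only sites had held neither coactivator untreated. A difference of these ratios may therefore be built into the choice of sites, and its cause was not tested. Untreated MED1 was at 15.1% and 8.36% of p300-only and at 9.91% and 11.0% of CBP-only sites in replicates 1 and 2, against 27.6% and 18.6% of all sites. Over all sites the untreated replicates thus ordered the single-factor classes differently. In the top score decile of the rosiglitazone lists both had the larger share at p300-only sites. It was 40.0% (31.5 to 49.1) against 12.5% (7.45 to 20.2) in replicate 1. In replicate 2 it was 29.6% (22.0 to 38.5) against 15.4% (9.70 to 23.5), intervals that overlap. In the upper 50% of both lists the difference was 14.1 points in replicate 1 but -1.53 in replicate 2. A contrast among strong sites was thus present without rosiglitazone in replicate 1, and in replicate 2 only near the top of the lists.

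Sites that held neither CBP nor p300 before treatment had low MED1 shares without rosiglitazone and higher ones with it. They were chosen as lacking both coactivators without rosiglitazone and holding CBP or p300 with it. A rise of lists that occur with the coactivators may therefore be built into the choice. The whole MED1 lists also grew, by ratios of 1.43 and 1.53. At the 2869 p300-only sites of this kind MED1 went from 5.33% to 16.9% in replicate 1 and from 4.18% to 10.5% in replicate 2. At the 311 shared sites of this kind it went from 13.5% to 41.5% and from 11.6% to 25.7%. At the 519 CBP-only sites of this kind it went from 4.82% to 11.6% and from 6.36% to 8.67%. At CBP-only sites that had held both factors the shares without and with rosiglitazone were nearly level, at 17.7% and 17.1% in replicate 1 and 17.6% and 17.3% in replicate 2. At p300-only sites that had held both they were 30.9% and 36.5%, and 15.0% and 17.5%. NCOR shares were also higher with rosiglitazone at sites that had held neither factor: 39.5% without and 45.6% with it at p300-only, 44.1% and 52.4% at CBP-only, and 56.3% and 68.5% at shared sites. Over whole classes they were 53.7% and 56.7% at p300-only, 62.4% and 68.5% at CBP-only, and 84.5% and 86.7% at shared sites, with 67.8% of all sites holding untreated NCOR. The whole NCOR list was longer with rosiglitazone, by a ratio of 1.13.

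In untreated cells the same join gave 20699 sites. With the lists uncut, the classes differed in the same direction but by less for the transcription factors and NCOR. Untreated shared sites were 63.0% of CBP and 64.6% of p300 sites. At equal length of all 4 lists the share was 66.0% of CBP sites untreated (65.0 to 67.0) and 62.2% with rosiglitazone (61.3 to 63.2). ATF2 was at 57.3% of CBP-only and 43.5% of p300-only untreated sites, a difference of -13.8 points (-15.7 to -12.0) against -24.8 with rosiglitazone. CEBPa differed by -4.99 points untreated (-6.48 to -3.49) and NCOR by -2.64 (-4.51 to -0.77). Untreated MED1 was higher at untreated p300-only sites by 6.39 points in replicate 1 and 1.64 in replicate 2. With the rosiglitazone p300 list cut to 9515 peaks, the rosiglitazone differences were -21.1 points for ATF2, -8.55 for CEBPa and -3.37 for NCOR. These lie nearer to the untreated ones, which come from uncut lists. Differences of the untreated classes were not computed at that length, so their size was not compared like with like. The difference between conditions was not tested.

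Individual sites show the classes at their extremes. Positions are in build mm8, counted from 1, and genes near them were not analysed here. The highest CBP-only site lay on chromosome 6 from 114887337 to 114887536, with an authors' CBP score of 8.21. It held CBP and p300 in untreated cells, NCOR in both conditions, MED1 replicate 2 with rosiglitazone, ATF2 and JUND. The next, on chromosome 18 from 55259320 (score 7.51), held the same CBP, p300, NCOR and MED1 lists, with both C/EBP factors, ATF2 and FOSL2. The third, on chromosome 8 from 129437183 to 129437382 (score 7.28), was in all 13 other lists and was also the highest CBP-only site with MED1 in both rosiglitazone lists. The other 2 began at 28409729 on chromosome 19 and 129410747 on chromosome 8, with scores of 7.04 and 6.95. Both held NCOR in both conditions, untreated CBP, CEBPa, CEBPb and ATF2, and neither held MED1. The other CBP-only sites that ranked highest with MED1 in both rosiglitazone lists began at 99225031 on chromosome 15 (score 5.49, all 5 factors) and 31790187 on chromosome 12 (score 5.16, 4 factors).

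The highest p300-only site was the highest p300 peak of all, on chromosome 10 from 117140137 to 117140336 with a score of 21.94. It held MED1 replicate 1 with rosiglitazone, JUND and FOSL2, and neither NCOR nor untreated p300 or CBP. The next 2 lay on chromosome 6 from 113401591 to 113401790 (score 8.2) and chromosome 2 from 145199291 to 145199490 (score 8.14). Each held all 4 MED1 lists, NCOR and untreated CBP and p300, with CEBPa, CEBPb and ATF2 but no AP-1 subunit. The last 2 began at 29885879 and 38722616 on chromosome 6 (scores 7.60 and 7.05). They held both C/EBP factors, NCOR, untreated CBP and p300, and MED1 with but not without rosiglitazone, in replicate 2 alone at the first and in both replicates at the second. All 5 highest CBP-only sites held ATF2 and both NCOR lists, while 4 of the 5 highest p300-only sites held NCOR and 2 held ATF2. In the top score decile NCOR with rosiglitazone was at 94.2% of CBP-only and 88.7% of p300-only sites, and ATF2 at 86.5% and 53.9%. Counts over 5 sites add little to these shares.

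Of the 5 highest shared sites, 2 lay on chromosome 17 within 1 kb, at 39451379 to 39451597 (scores of 17.32 for CBP and 21.51 for p300, no other list) and 39451847 to 39452049 (11.55 and 16.95, both MED1 replicate 1 lists, untreated CBP and p300, no factor). Another, on chromosome 11 from 97979884 to 97980096 (11.69 and 16.95), held only untreated CBP and p300. These sites on chromosomes 17 and 11 held neither NCOR nor a factor. In the top score decile of shared sites NCOR with rosiglitazone was at 96.4% and ATF2 at 93.7%. The input was not analysed, so whether it has signal at these sites is unknown. The other 2, on chromosome 6 from 115477163 to 115477363 (10.98 and 15.25) and 115204316 to 115204521 (11.22 and 13.67), were in all 13 other lists. The third shared site with MED1 in both rosiglitazone lists, after those 2, began at 99140967 on chromosome 6 (9.15 and 12.82) and was in all 13 as well.

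Shared sites with the most unequal ranks were named as 3 in each direction, too few to show a pattern. The 3 leaning most to p300 began at 120313608 on chromosome 11, 163163998 on chromosome 2 and 78613303 on chromosome 15, with p300 scores of 3.71, 3.89 and 3.83 and CBP scores of 1.03, 1.08 and 1.08. All 3 held MED1 replicate 1 with rosiglitazone, NCOR with rosiglitazone and ATF2. The 3 leaning most to CBP began at 21792371 on chromosome 19, 55619728 on chromosome 17 and 163489983 on chromosome 2, with CBP scores of 6.15, 3.90 and 3.29 and a p300 score of 1.03 at each. All 3 held NCOR in both conditions, untreated CBP, ATF2 and JUND, and 1 of them held MED1 with rosiglitazone, in replicate 2. All 3 also held MED1 without rosiglitazone, in replicate 2 on chromosome 19 and in replicate 1 on chromosomes 17 and 2. Of the p300-leaning sites only that on chromosome 11 held untreated MED1, in replicate 1. CEBPa and CEBPb were at 2 of 3 sites in each direction. The C/EBP factors, ATF2 and NCOR with rosiglitazone thus did not separate the directions among these sites.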

How the data were processed

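The authors deposited 1 list of peaks per ChIP-seq library, so replicates were not pooled, and each of the 15 lists holds 200 bp windows with a peak score from the authors. The submitters' processing notes name build mm8 and the tools HOMER, Bowtie and bedtools. Tool versions, the peak threshold and any subtraction of input are unstated in the labels and notes. In all, 10 GRO-seq samples and the input were not analysed here. Scores were turned into percentiles within each list (mean rank for ties, 100 highest). CBP and p300 windows were chained into sites where they overlapped by 1 bp or more, and a site's percentile was that of its highest peak. For shared sites in a decile it was the mean of both. Another list was counted at a site where 1 of its windows overlapped it by 1 bp or more. Deciles with under 20 sites were not used. No test was made, as CBP and p300 had 1 list each. The labels do not tie the MED1 replicates to separate cultures, and the spread between them may be technical. Peak names of replicate 1 MED1 lists carry a B and those of replicate 2 do not.

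The members, lists and rules were chosen with earlier results of these data known. Named sites were the 5 highest of each class, the 3 highest of each class with MED1 in both rosiglitazone lists, the 3 highest single-factor sites in no other list, and the 3 shared sites with the most unequal percentiles each way. The code was tested on simulated lists for CBP-only, p300-only and shared sites with another list over them: with 12000 sites, 3 of 3 classes were recovered and 3 of 3 shares lay in their interval. Simulated sites lay far apart and their windows were made to overlap, so near misses, chained sites and list thresholds were not tried. Computations used Python 3.11.15, numpy 2.4.6, pandas 2.3.3, scipy 1.17.1 and matplotlib 3.10.9.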

Additional observations from a re-analysis of the deposited data

How the results depend on the processing

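The limits are the single CBP and p300 libraries, the unknown depth and the different list lengths, so that a missing peak is not an unbound site. The 8 main values were recomputed with other joins, list lengths and matching, and none changed sign in those runs. Pairing by replicate number exists only for MED1, whose values and rosiglitazone-to-untreated ratios are given per number (1.67 and 1.62 at p300-only, 1.28 and 1.12 at CBP-only sites). A fit with a replicate block was not made, as the shares were described without a test. The share of CBP and of p300 sites that were shared was 68.2% and 47.2% with an overlap of 50%, 72.3% and 50.6% with centres at most 500 bp apart, 72.8% and 50.5% in the upper 50% of both lists, and 62.2% and 62.3% at equal length. The median percentile of shared minus single-factor sites was 10.2 for CBP and 18.1 for p300 in the upper 50%, which spans fewer percentiles by construction, and 32.5 and 23.0 at equal length with percentiles kept from the whole lists. The MED1 difference of p300-only minus CBP-only was 18.4 points in the upper 50%, 13.3 at equal length, 13.3 when matched on score percentile, 4.16 in the upper 50% of the MED1 lists, 3.89 for sites in both MED1 lists, and 1.21 and 12.5 without replicate 1 and without replicate 2. MED1 at shared minus single-factor sites was 18.4 points when matched, against 30.2, and 24.1 and 36.3 without replicate 1 and without replicate 2. The NCOR difference of p300-only minus CBP-only was -3.37 points at equal length. NCOR at shared minus single-factor sites, 26.7 points, was 25.4 with an overlap of 50%, 14.1 in the upper 50%, 20.1 at equal length, 23.7 with centres within 500 bp, 15.2 when matched and 36.2 in the upper 50% of the NCOR list. Leaving out chained sites or chromosome X, or using a 200 bp window at the site's centre, kept all 8 values within their spread or interval, so far as each was run. Alternatives for each list alone, and the new ranking of p300 within its 9515 highest peaks, were chosen after seeing the data. By the limits set for these alternatives, 44 values moved from the main value and 24 stayed the same. With the new ranking the counts of shared sites over 50 points changed order, from 344 for p300 and 91 for CBP to 118 and 212. Among the differences of shares, 2 changed sign. Untreated MED1 replicate 2, at -2.68 points, was 10.1 among sites within the 2000 highest peaks, and untreated NCOR, at -8.77, was 0.75 at equal length. The cause was not tested.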

Other observations

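Some strong peaks stood alone. The highest p300-only site in none of the other 13 lists lay on chromosome 19 from 61254321 to 61254520 with a p300 score of 5.96, at the 97.6th percentile of its list, and the next began at 5845774 on chromosome 19 and 5296512 on chromosome 2 (scores 4.01 and 3.95). CBP-only sites in no other list were weaker: the highest, on chromosome 5 from 74944375 to 74944574, had a CBP score of 1.88, at the 55.0th percentile, and the next 2, at 61608936 on chromosome 9 and 96692123 on chromosome 10, both had 1.64.

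Neighbours were counted within 5 kb: 19.3% of p300-only sites (18.4 to 20.3) had another p300-only site and 6.45% (5.90 to 7.05) a CBP-only site. Of CBP-only sites 7.87% (6.92 to 8.94) had another CBP-only site and 14.3% (13.1 to 15.7) a p300-only site. A shared site lay within 5 kb of 18.8% of p300-only and 20.5% of CBP-only sites. The p300-only class is the larger one, so these shares are not comparable as an affinity between sites of a kind. Over the 20 chromosomes the share of CBP sites that were shared ran from 59.1% to 76.8%, and that of p300 sites from 44.7% to 55.0%.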
